A study of Mus musculus with 42 samples.

Results

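The data described here were 3 of the 42 libraries of a study of messenger RNA 3′ ends under arsenic stress, and 3 of its 38 3′READS libraries. They were the flow-through (Ft) fractions of NIH3T3 cells, a mouse fibroblast line, and were chosen by their labels. NT0h and NT4h were untreated cultures harvested at 0 and 4 h. RC4 was a culture given 250 µM sodium arsenite for 1 h and then left to recover in normal medium for 4 h. All 3 cultures received 50 µM 4-thiouridine (4sU), a uridine analogue, for 1 h before harvest, and RNA that had taken up 4sU was pulled out through biotin. The Ft fraction is the RNA that was not pulled out, so it stands for RNA made before the labelling hour. In RC4 cells that includes RNA made during arsenite treatment and during recovery up to that hour, and it may hold newly made RNA that escaped capture. The labels give 1 RC4 library. Nothing in them says that the libraries came from separate cultures of a repeated experiment, so the p-values measure the spread between these libraries only.

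In 3′READS, each read ends where a transcript was cleaved and polyadenylated, at a polyadenylation site (PAS). The sum of reads over the PASs of a gene measures its poly(A)+ RNA, and the share at each PAS measures its 3′UTR isoforms. Where a gene has a proximal PAS (pPAS) and a distal PAS (dPAS), use of the distal one adds a stretch called the alternative 3′UTR (aUTR). Arsenite binds thiols and damages proteins. Cells answer through heat shock factor 1, which induces chaperones, through NRF2, which induces antioxidant and glutathione genes, and through ATF4, which follows phosphorylation of eIF2α. Untranslated mRNAs gather in stress granules, of which the RNA-binding protein TIA1 is a core component.

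The 3 libraries held 2935698 (NT0h), 3316741 (NT4h) and 3074676 (RC4) PAS reads, of which 93.5 to 94.2% fell in genes. The files leave out any position whose count in a library is under 5, and a gene given here as not listed, or at 0, may therefore have had a few reads. All 12 fibroblast markers were present, and their summed level was 24190 RPM in NT0h, 23560 in NT4h and 17280 in RC4, where RPM is reads per 1000000 after TMM scaling. Of 7 muscle markers 6 were at 0, and Ttn was listed in RC4 alone (5.03 RPM). Of 5 epithelial markers 4 were at 0, and Krt14 was listed in RC4 alone (2.51 RPM). All 4 endothelial markers were at 0. Of the 5 blood markers Cd68 alone was listed (12.5, 8.35 and 38.5 RPM in NT0h, NT4h and RC4). The part of other cells in the results was not tested.

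Gene levels were compared first, to see which mRNAs of the unlabelled pool rose or fell by 4 h of recovery. Of 9555 genes tested, 1793 rose (18.8%) and 1535 fell (16.1%) in RC4 by edgeR's quasi-likelihood test at a Benjamini-Hochberg adjusted p of 0.05. The 2 NT libraries gave the scale of noise. Against each NT library separately, with 4 reads in place of an unlisted gene, 1106 genes (11.6%) were at least 2-fold higher in RC4 and 1062 (11.1%) at least 2-fold lower, whereas 314 genes were 2-fold higher and 238 were 2-fold lower in NT4h than in NT0h. The SD of the log2 ratio across genes was 0.50 between the NT libraries, 1.12 for RC4 over NT0h and 1.12 for RC4 over NT4h. The fit had 1 residual degree of freedom and takes the single RC4 library to vary as the NT pair does. An exact permutation test of 1 library against 2 cannot give a p below 0.333. DESeq2 called fewer, 894 that rose and 472 that fell. With all other libraries of the labelling experiment added to the fit, 1151 genes fell, in place of 1535. Fewer fell when NT0h or NT4h was also left out of that fit.

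**Figure D1:**
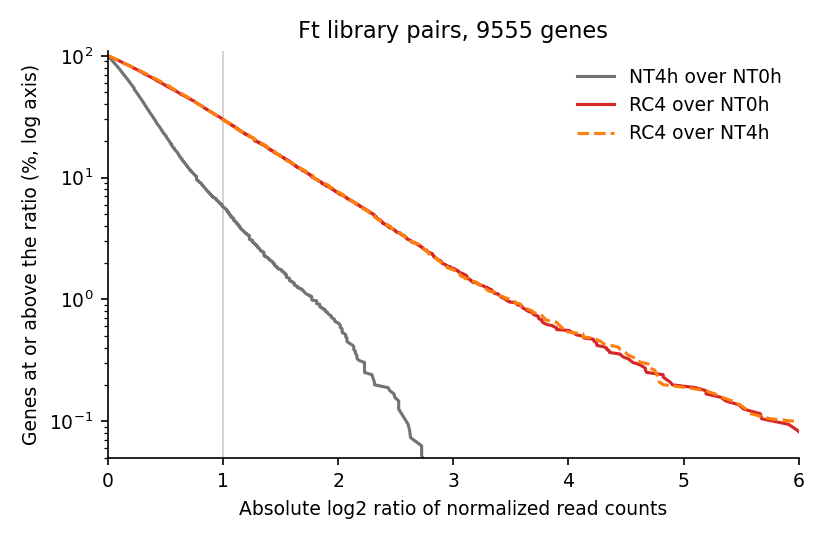
Share of the 9555 genes (%, log axis) whose absolute log2 ratio between 2 Ft libraries reached the value on the x axis. The NT4h over NT0h line drops far faster than both RC4 lines, which nearly coincide; they share the RC4 library. The vertical line marks a 2-fold ratio.

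Of the 12 genes with the largest rise, Hspa1b, which encodes the inducible HSP70, had the highest level in RC4. It stood at 27.0 RPM in NT0h, 35.1 in NT4h and 9796 in RC4 (80, 122 and 23387 reads), a log2 fold change of 8.29 ± 0.25 (SE, adjusted p = 4e-31). All of its NT reads, and 22847 of those in RC4, lay past the annotated gene end. With such reads left out it was not listed in either NT library and had 540 reads in RC4. Its near-identical neighbour Hspa1a was not listed in either NT library and had 257 reads in RC4. Reads of this pair can be assigned to the wrong copy or lost at mapping, so the split between them is uncertain. Hspb1, a small heat shock protein, also went from not listed in both NT libraries to 215 reads.

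An unlisted position can hold up to 4 reads. With 4 reads put, in each unlisted library, at every site of the gene that any of the 3 libraries lists, Hspa1a (4 sites) was at least 19.9-fold higher and Hspb1 (2 sites) at least 33.4-fold higher in RC4. By the same reckoning P2rx7, which encodes an ATP-gated ion channel, was at least 23.9-fold higher (694 reads in RC4 over 9 sites), and Havcr2, which encodes the TIM-3 receptor, at least 15.9-fold higher (205 reads over 4 sites). The P2rx7 reads did not lie in the last exon of its annotation. The site with most of them, 402 reads, was in another annotated exon at position 123133534 of chromosome 5 (mm9, plus strand). The main Havcr2 site, 151 reads, was in its last exon at position 46294751 of chromosome 11.

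Hmox1, which encodes the haem-degrading enzyme heme oxygenase 1, was at 19.2, 22.8 and 3247 RPM in NT0h, NT4h and RC4 (log2 7.27 ± 0.23). Atf3, a transcription factor induced by many stresses, was at 6.08, 2.88 and 639 RPM (7.18 ± 0.27; 7.82 with NT0h left out). Procr, the protein C receptor, was at 14.9, 12.1 and 544 RPM (5.34 ± 0.23). Both NT libraries lay far below RC4 for each of these genes.

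The NT base of the other large rises was thin. Gdnf, a neurotrophic factor, had 8, 9 and 288 reads in NT0h, NT4h and RC4, of which all NT reads and 169 of those in RC4 lay past its annotated end. Slc7a11, the cystine transporter, had 6, 0 and 334 reads, the early response factor Egr1 had 0, 7 and 194, and the co-chaperone gene Dnaja4 had 15, 0 and 239. DESeq2 did not call these last 3, with adjusted p of 0.24 (Slc7a11), 0.29 (Egr1) and 0.53 (Dnaja4). Their log2 fold changes of 7.16, 6.18 and 5.38 were 6.10, 5.35 and 4.32 with the NT library left out in which they were not listed, and with the other one left out no fold can be given. Egr1 was at 5.45 with last-exon PASs alone, and Dnaja4 at 5.98 without reads past its annotated end.

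Among the 12 genes with the largest fall, Spon2, Col1a1, Cd248 and Klf2 had the highest NT levels. Col1a1, the α1 chain of type I collagen, had 3071 and 4366 reads in NT0h and NT4h against 132 in RC4. Its level was 1037, 1257 and 55.3 RPM, a log2 fold change of −4.37 ± 0.26 (adjusted p = 3.2e-19). Spon2, a secreted matrix protein, was at 1629, 1650 and 132 RPM (−3.64 ± 0.25). Cd248, the fibroblast surface protein endosialin, was at 300, 276 and 18.0 RPM (−3.99 ± 0.28). Klf2, a transcription factor, was at 195, 222 and 23.0 RPM (−3.18 ± 0.27). In these 4 genes the NT libraries lay within 1.21-fold of each other.

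Smaller counts stood behind the remaining falls. Ccne1 (cyclin E1) had 301, 327 and 20 reads and Fbxo5, an inhibitor of the anaphase-promoting complex, 238, 295 and 22. Atoh8, a basic helix-loop-helix factor, had 212, 196 and 9 reads, and the adhesion gene Amigo2 had 109, 132 and 6. Klhl23 had 63, 100 and 5 reads, Ccnd1 (cyclin D1) 72, 78 and 5, and Pml, the core of PML nuclear bodies, 81, 82 and 6. Bace1, the β-secretase of amyloid precursor protein, had 80 and 111 reads in the NT libraries and was not listed in RC4, at least 3.22-fold lower with 4 reads at each of its 5 sites.

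**Figure D2:**
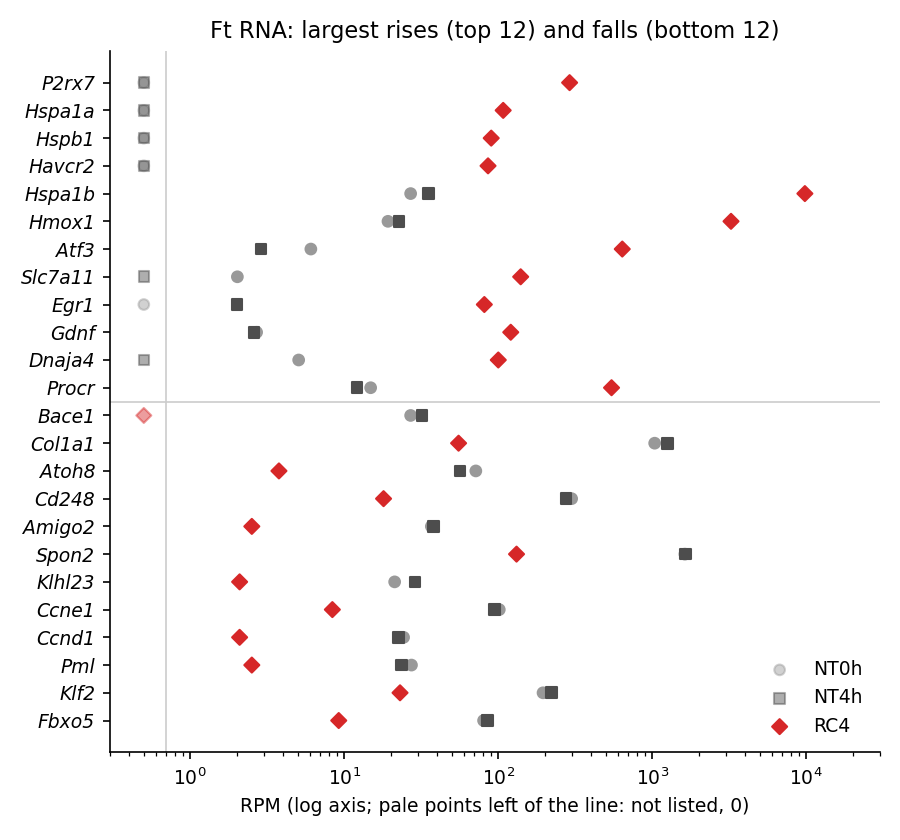
Level (RPM, log axis) in NT0h (circles), NT4h (squares) and RC4 (diamonds) of the 12 genes with the largest rise and the 12 with the largest fall. Each point is 1 library, and pale points left of the line are genes not listed in that library. The NT points lie close together for most genes, and RC4 lies apart from both in all 24, as the choice of these genes requires.

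The heat shock list moved as a block. All 25 members tested rose, against 18.8% of all genes, with a median log2 fold change of 3.03 (range 1.00 to 11.3) beside −0.04 for all genes. The list took 0.598 and 0.562% of gene reads in NT0h and NT4h and 4.85% in RC4. In the RefSeq promoters of these genes, from 250 bases before to 50 after the gene start, the letters GAANNTTC were found in 13 of 21 genes with a promoter sequence, against 9.04% of 27025 genes. This is a pair of the inverted units that heat shock factor 1 binds, and it reads the same on both strands. Among genes that rose at least 2-fold against both NT libraries the share was 8.14%. Windows of 30 bases around the match nearest the gene start are shown for the 3 chaperone genes with the largest rise, because they hold the letters in capitals at almost the same place (5′ to 3′ on the gene's strand, GRCm38.p6). The Hspa1a and Hspa1b windows are identical, as the coding parts of the pair nearly are.
Hspa1a, chr17:34972242-34972271: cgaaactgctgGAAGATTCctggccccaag
Hspa1b, chr17:34959324-34959353: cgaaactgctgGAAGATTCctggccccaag
Hspb1, chr5:135887811-135887840: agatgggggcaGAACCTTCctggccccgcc
The match begins 104 bases before the start of Hspa1a and of Hspa1b and 97 before that of Hspb1. A match describes the letters only and is not evidence of binding.

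The other proteotoxic and oxidative stress lists rose in most members. Of 19 NRF2 targets tested, 16 rose and none fell by edgeR (median 1.81), against 18.8% and 16.1% of all genes. Besides Hmox1 and Slc7a11, Srxn1, which encodes sulfiredoxin, went from 294 and 277 RPM in NT0h and NT4h to 6018 in RC4 (log2 4.40 ± 0.20). The letters TGACNNNGC, the core of the antioxidant response element, were found on either strand in 7 of 15 NRF2 target promoters against 14.0% of all and 19.5% of genes that rose 2-fold. The 3 metallothionein and zinc exporter genes all rose. Mt2, a metal-binding protein, was at 2547, 2138 and 14770 RPM, Mt1 at 1477, 1582 and 8078 RPM, and the zinc exporter Slc30a1 at 36.8, 27.1 and 261 RPM.

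Of 10 ubiquitin and proteotoxic stress genes tested, 8 rose (median 1.90). Zfand2a, which encodes the arsenite-inducible AIRAP, was at 27.0, 18.4 and 674 RPM (log2 4.90 ± 0.22). Sqstm1, the autophagy receptor p62, was at 193, 160 and 2167 RPM (3.62 ± 0.20). Of 33 proteasome subunits, 15 rose and none fell by edgeR with TMM, against 18.8% and 16.1% of all genes, with a median of 0.57. With library totals in place of TMM 8 rose and 1 fell (median 0.17). Psmc6 rose most (90.5, 107 and 284 RPM), followed by Psmd1 (21.6, 22.8 and 54.9) and Psmd14 (35.8, 35.4 and 86.3). DESeq2 did not call Psmd1 (adjusted p = 0.077).

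Stress signalling genes rose in their majority too. Of 19 ATF4 targets tested, 17 rose (median 1.54), against 18.8% of all genes. Ppp1r15a, the GADD34 subunit that dephosphorylates eIF2α, was at 15.5, 12.1 and 211 RPM, and Cth, an enzyme of cysteine synthesis, had 0, 7 and 111 reads. Of 25 immediate early genes, 17 rose (68.0%) and 2 fell (8.0%, beside 16.1% of all genes), with a median of 1.79. The MAP kinase phosphatase genes Dusp4 (3.71, 7.20 and 189 RPM) and Dusp5 (2.36, 4.32 and 41.5 RPM) rose, while Klf2 and Srf fell (Srf 103, 116 and 38.1 RPM). Of 14 p53 targets, 10 rose (median 1.20), among them Gadd45a at 11.1, 13.3 and 117 RPM. Trp53inp1 had 0, 6 and 65 reads and the BH3-only gene Pmaip1 0, 5 and 26. Cth, Trp53inp1 and Pmaip1 were not called by DESeq2 (adjusted p = 0.39, 0.44 and 0.55).

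Secreted signals were mixed. Of 14 cytokine and growth factor genes tested, 8 rose (57.1%) and 3 fell (21.4%), beside 18.8% and 16.1% of all genes (median 1.22). Ptgs2, the inducible cyclooxygenase, was at 202, 241 and 3476 RPM, Il11 at 21.3, 26.8 and 150 RPM, and Fgf2 had 8, 0 and 34 reads. The chemokine genes Ccl2 (185, 209 and 90.9 RPM) and Cxcl5 (79.3, 97.9 and 57.0 RPM) fell. Lif had 17 and 20 reads in the NT libraries and was not listed in RC4, at least 1.14-fold lower with 4 reads at each of its 3 sites. DESeq2 called 6 of the rises and, of the falls, that of Ccl2 alone (adjusted p of 0.70 for Fgf2, 0.33 for Cxcl5 and 0.077 for Lif).

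Cell cycle genes went the other way. Of 25 tested, 16 fell and 1 rose, against 16.1% and 18.8% of all genes, with a median log2 fold change of −1.15. Besides both cyclin genes, Plk1, a mitotic kinase, was at 36.5, 34.6 and 4.19 RPM (108, 120 and 10 reads). Mcm2, a subunit of the replicative helicase, was the one that rose (107, 103 and 150 RPM), and it was called neither by DESeq2 (adjusted p = 0.28) nor with library totals (edgeR adjusted p = 0.68). Of 21 extracellular matrix genes, 9 fell and 3 rose (median −0.32). Col3a1 was at 729, 966 and 284 RPM and Fbn1, fibrillin 1, at 148, 163 and 44.0 RPM. The protease inhibitor genes Timp3 (205, 213 and 404 RPM) and Timp1 (2524, 1701 and 3553 RPM) and the matrix gene Tnc (1091, 1001 and 1622 RPM) rose, but with library totals Timp3 alone did, and DESeq2 did not call Timp1 (adjusted p = 0.35).

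Among genes that act on RNA, 6 of 24 genes of AU-rich element binding and decay rose (25.0%) and 3 fell (12.5%), beside 18.8% and 16.1% of all genes. With library totals 3 rose and 6 fell, and by DESeq2 2 rose and 0 fell. Zfp36, the decay factor tristetraprolin, was at 27.0, 34.8 and 127 RPM, Btg1 at 9.79, 17.3 and 38.1 and Ddx6 at 11.8, 6.62 and 25.1. The deadenylase genes Cnot6 (69.2, 75.2 and 42.7 RPM) and Cnot6l (47.9, 49.8 and 29.7) and the decay factor gene Khsrp (176, 190 and 121) fell by edgeR, but were not called by DESeq2 (adjusted p = 0.27, 0.42 and 0.17). Nor were Btg1 (0.13) and Ddx6 (0.26). Of 11 stress granule genes, 3 rose (27.3%) and 2 fell (18.2%), which turned to 2 and 3 with library totals and to 2 and 0 by DESeq2. The RNA helicase gene Ddx3x (77.3, 61.6 and 208 RPM), Fxr1 (121, 108 and 279) and Fmr1 (56.0, 59.3 and 91.3) rose, and Tia1 (41.5, 46.1 and 22.6 RPM) and its paralog Tial1 (35.4, 40.0 and 18.4) fell by edgeR. DESeq2 called neither Tia1 nor Tial1 (adjusted p = 0.27 for both), nor Fmr1 (0.27).

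Of 18 cleavage and polyadenylation factors tested, 4 rose (22.2%, beside 18.8% of all genes) and none fell by edgeR, with a median of −0.04 equal to that of all genes. With library totals 1 rose and 3 fell, and by DESeq2 2 rose and 0 fell. Cpsf6, a subunit of cleavage factor I, was at 190, 158 and 428 RPM, the poly(A) polymerase gene Papola at 45.2, 44.1 and 77.5 RPM and Rbbp6 at 89.4, 87.8 and 145 RPM. Of these 3 genes, Cpsf6 alone was called by DESeq2 and with library totals. Of 65 ribosomal protein genes, 8 rose (12.3%) and 1 fell (1.54%), shares below the 18.8% and 16.1% of all genes. Their median was 0.36 with TMM. Of the 65, 53 lay above both NT libraries and 4 below both, beside 3976 and 4173 of all 9555 genes. With library totals 1 rose and 3 fell, and by DESeq2 4 rose and 0 fell. The examples were Rpl35a (72.9, 73.1 and 135 RPM), Rpl27a (222, 182 and 316) and, in the other direction, Rpl15 (65.1, 71.7 and 42.7), none of which DESeq2 called (adjusted p = 0.057, 0.063 and 0.36). Reads of ribosomal protein genes can be shared with pseudogenes. In the nuclear respiratory chain list 4 of 69 fell (5.8%, beside 16.1% of all genes), 32 with library totals and 1 by DESeq2. Among the 4 were Sdha (277, 289 and 166 RPM), Ndufs6 (88.1, 92.7 and 58.6) and Sdhc (211, 209 and 141), of which DESeq2 called Sdha alone. None of the list rose by edgeR with TMM, with library totals or by DESeq2.

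Of 198 zinc finger genes named Zfp, 32 rose (16.2%) and 18 fell (9.09%), shares that are near or below those of all genes. With library totals 17 rose and 33 fell, and by DESeq2 8 rose and 5 fell. The largest rise was of Zfp703 (5, 17 and 119 reads), followed by Zfp945 (37, 29 and 132) and Zfp141 (11, 19 and 50), which DESeq2 did not call (adjusted p = 0.11). Zfp618 (50 and 63 reads in NT), Zfp324 (42 and 76) and Zfp651 (35 and 40) were not listed in RC4, at least 5.04-fold, 2.12-fold and 3.44-fold lower with 4 reads at each of their sites (2, 4 and 2 sites). Of 7 mitochondrially encoded genes 1 fell, mt-Nd6, whose NT libraries differed widely (45.2, 10.1 and 4.61 RPM), and DESeq2 did not call it (adjusted p = 0.33).

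These directions depend on the scale. TMM gave the RC4 library a factor of 0.828, against 1.07 for NT0h and 1.12 for NT4h. The 10 most abundant genes held 12.4, 10.9 and 9.75% of gene reads in RC4, NT0h and NT4h. With library totals alone the median log2 fold change of all genes was −0.45 in place of −0.04, and 1066 genes rose and 3051 fell. The list medians then turned below 0 for ribosomal proteins (−0.05), Zfp genes (−0.16), decay genes (−0.30), stress granule genes (−0.26) and mitochondrially encoded genes (−0.10). All of these stayed above the −0.45 of all genes. The medians of the heat shock (2.63), NRF2 (1.40), ATF4 (1.13) and cell cycle (−1.55) lists kept their sign. Fewer poly(A)+ molecules in RC4 cells and a change in composition cannot be told apart in these counts.

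**Figure D3:**
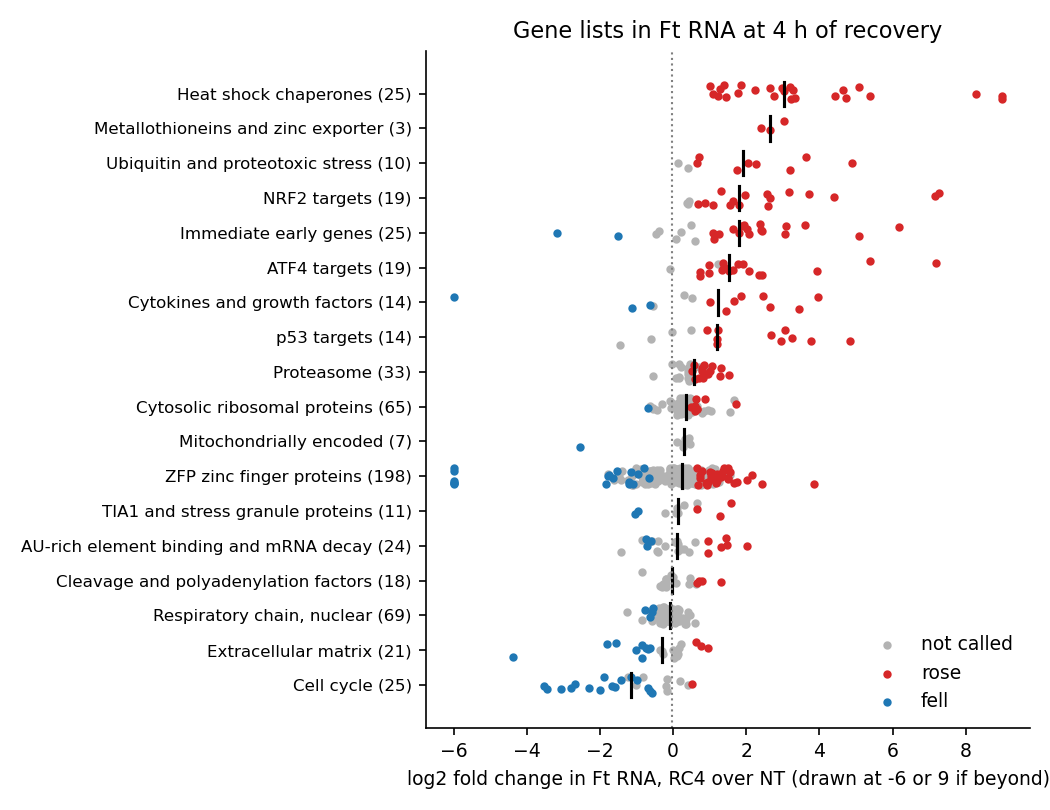
log2 fold change (RC4 over NT, edgeR with TMM) of each tested gene in 18 lists, with the number tested in parentheses. Red points rose, blue points fell and grey points were not called; black bars are list medians and the dotted line is the median of all genes (−0.04). All heat shock genes lie right of the line and most cell cycle genes left of it. Under library totals the ribosomal protein, Zfp, decay, stress granule and mitochondrial medians fall below 0, but stay above the median of all genes (−0.45).

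The same genes were then looked up in libraries that share no control with the Ft comparison. In total RNA of the time course (1 RC4 and 1 NT library), 1476 of 1603 genes that rose in Ft RNA and had enough reads were higher, and 1054 of 1156 that fell were lower, where 50.6% of all 7354 genes were higher. In RNA-seq of coding sequence (1 recovery and 1 NT library) these were 1548 of 1642 and 1200 of 1343, where 50.0% of all 8414 genes were higher. Sizes differed for some genes. Col1a1 was at log2 −4.37 in Ft RNA, −1.44 in total RNA and −0.10 in RNA-seq, and Ccnd1 at −3.45, −0.20 and −1.17. Hspa1b was at 8.29, 5.82 and 9.73, and Mt2 at 2.66, 3.77 and 0.82. None of these pairs has a replicate of the recovery sample.

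The 4sU fraction, the RNA made in the last hour in the same labelled cells, gives the matching view of synthesis. There, 1587 genes rose (16.6%) and 1318 fell (13.8%) at RC4 by edgeR, in a fit of all 8 libraries of the labelling experiment. The Ft calls came from the fit of 3 Ft libraries (1793 rose and 1535 fell), where the 8-library fit gave 1643 and 1151. With these unlike fits 1117 genes rose in both fractions, 62.3% of those in Ft and 70.4% of those in 4sU RNA. In both fractions 780 fell (50.8 and 59.2%). In opposite directions 9 genes were called. The heat shock median was 3.03 in Ft and 1.96 in 4sU RNA, that of NRF2 targets 1.81 and 2.41, that of immediate early genes 1.79 and 0.63 and that of cell cycle genes −1.15 and −1.59. The difference itself was tested as the interaction of fraction and treatment over 8 libraries. With these taken as independent, edgeR called 0 genes, with 1280 at an unadjusted p below 0.05, and DESeq2 called 14 with a higher and 1 with a lower effect in Ft RNA. The Ft and 4sU fractions were parted from the same RNA, so the culture can be held as a block. With this block edgeR called 319 genes with a higher and 148 with a lower effect in Ft RNA (467 of 9555, 4.89%). This paired fit was added after the data were seen, and it leaves 1 residual degree of freedom against 2 without the block.

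Genes among the 9 with opposite calls were named after their values were seen. Of these, 4 rose in Ft RNA and fell in 4sU RNA. Cyp51, an enzyme of cholesterol synthesis, was at 383, 434 and 682 RPM in Ft RNA and had 1385, 2081 and 739 reads in 4sU RNA in NT0h, NT4h and RC4 (log2 changes 0.74 and −1.39). Cd97 and Filip1l moved the same way. Tia1 fell in Ft RNA and rose in 4sU RNA, where it had 154, 303 and 537 reads (−0.95 and 1.11). Ttc14, Usp5 and Bclaf1 moved as Tia1 did. 9030617O03Rik was called the same way, with 13, 29 and 0 reads in Ft RNA. With 4 reads at each of its 3 sites, the lower bound of its fall was 0.873-fold. A fall of this gene in Ft RNA is therefore not shown. Without the block the interaction gave edgeR adjusted p from 0.0587 (Cyp51) to 0.17 for the 9 genes. With the culture as a block all 9 passed, with edgeR adjusted p from 0.000281 (Cyp51) to 0.0167 (Cd97). The 9 had been picked for opposite calls in these same libraries, so their passing adds no independent evidence. The effect of RC4 was higher in Ft than in 4sU RNA by a log2 of 2.16 ± 0.20 (SE) for Cyp51, and that of Tia1 was −2.03 ± 0.31 on the same scale.

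Cells harvested right after arsenite, with no recovery, also have 1 Ft library (AS). Against the same NT libraries, in a fit of all 8 libraries of the labelling experiment, 77 genes rose (0.806%) and 59 fell (0.617%) in AS. The same fit called 1643 genes that rose and 1151 that fell in RC4. The reads of Hspa1b were 80, 122, 2184 and 23387 in NT0h, NT4h, AS and RC4, and those of Hmox1 57, 79, 705 and 7751. Egr1 was nearly as high in AS as in RC4 (164 and 194 reads), and Zfp36 higher (670 and 303). Klf2 was above both NT libraries in AS (1217 reads) and below both in RC4 (55). Of the immediate early genes, 14 of 25 rose in AS and none fell by edgeR; of the heat shock genes, 4 of 25 rose. Compared directly, in a fit of the 4 Ft libraries, 1599 genes were higher and 1293 lower in RC4 than in AS.

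Isoforms were compared next, to see whether the unlabelled pool had shifted between short and long 3′UTRs. For each gene the pPAS and dPAS were the 2 most abundant 3′UTR sites, and RED is log2(dPAS/pPAS) in RC4 minus that in NT, so a RED below 0 means relatively more of the short isoform. RED does not depend on library scaling. A gene entered if both of its isoforms had over 5 reads in every one of the 3 libraries, which left 2815 genes. The median RED was −0.48 against NT0h and −0.49 against NT4h, and 0.05 for NT4h against NT0h. RED was below 0 against both NT libraries in 1755 genes and above 0 against both in 468.

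By Fisher's exact test on reads, with a change over 5 percentage points against each NT library, 555 genes were shortened (19.7%) and 33 were lengthened (1.17%). The same test between the NT libraries called 183 shortened and 241 lengthened, and 69 of the 555 were also called there. Fisher's test counts reads as independent and so carries counting error only. With the spread between NT libraries taken in, edgeR called 273 shortened (9.7%) and 10 lengthened (0.355%), of which 237 and 6 were among those called by Fisher's test. The 237 are 42.7% of the genes shortened by Fisher's test and 86.8% of those shortened by edgeR. With both NT libraries kept and the other libraries of the labelling experiment added to the fit, edgeR called 112 shortened and 2 lengthened. Leaving out NT0h or NT4h as well removed the calls. That was tried only with those libraries added and a changed set of genes, so these effects cannot be told apart. The median RED was −0.50 without NT0h and −0.47 without NT4h.

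**Figure D4:**
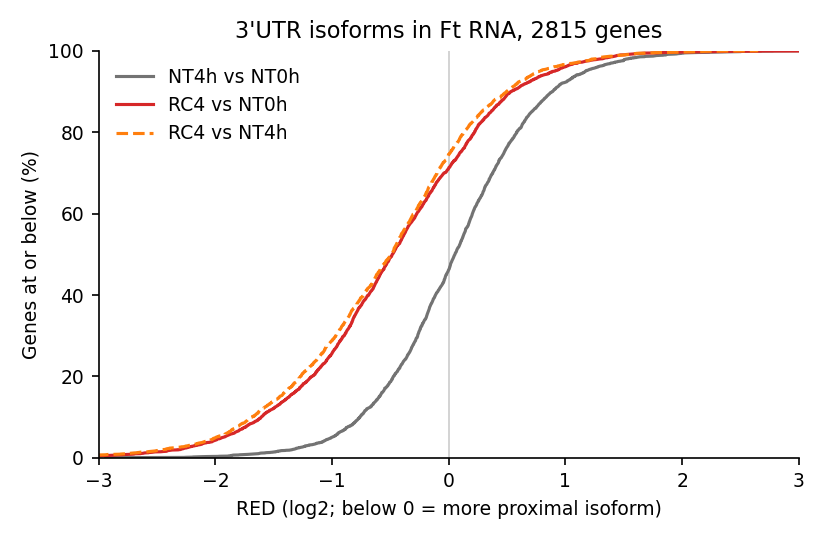
Cumulative distribution of RED (log2) over 2815 genes for RC4 against each NT library and for NT4h against NT0h. Both RC4 curves lie left of the NT curve, with medians of −0.48 and −0.49 against 0.05.

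Which isoform moved depends on the scale. Over the 2815 genes the pPAS isoform changed by a median log2 of 0.38 and the dPAS isoform by −0.09 with TMM scaling, where the median of all genes was −0.04. With library totals both are lowered by 0.41, to −0.03 and −0.49, where the median of all genes was −0.45. In the 555 shortened genes the medians were 1.00 for pPAS and −0.36 for dPAS with TMM scaling. On that scale, 276 of these genes had a pPAS isoform at least 2-fold higher, 126 a dPAS isoform at least 2-fold lower, 15 both and 168 neither. Among all 2815 genes, 718 had a pPAS isoform at least 2-fold higher and 363 a dPAS isoform at least 2-fold lower. The 555 genes had been selected for a shift between these isoforms.

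The size of the shift followed the length of the aUTR. In 5 bins of rising aUTR length the median RED was −0.18 (25 to 125 nt), −0.35 (126 to 351 nt), −0.42 (352 to 828 nt), −0.66 (829 to 1683 nt) and −0.90 (1684 to 9628 nt). The NT4h against NT0h medians of these bins lay between 0.03 and 0.10. The share of genes called shortened by Fisher's test rose from 7.28% in the first bin to 35.8% in the last, while 8, 9, 6, 6 and 4 genes were lengthened. With TMM scaling the pPAS median went from 0.21 to 0.56 across the bins and the dPAS median from −0.01 to −0.26.

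**Figure D5:**
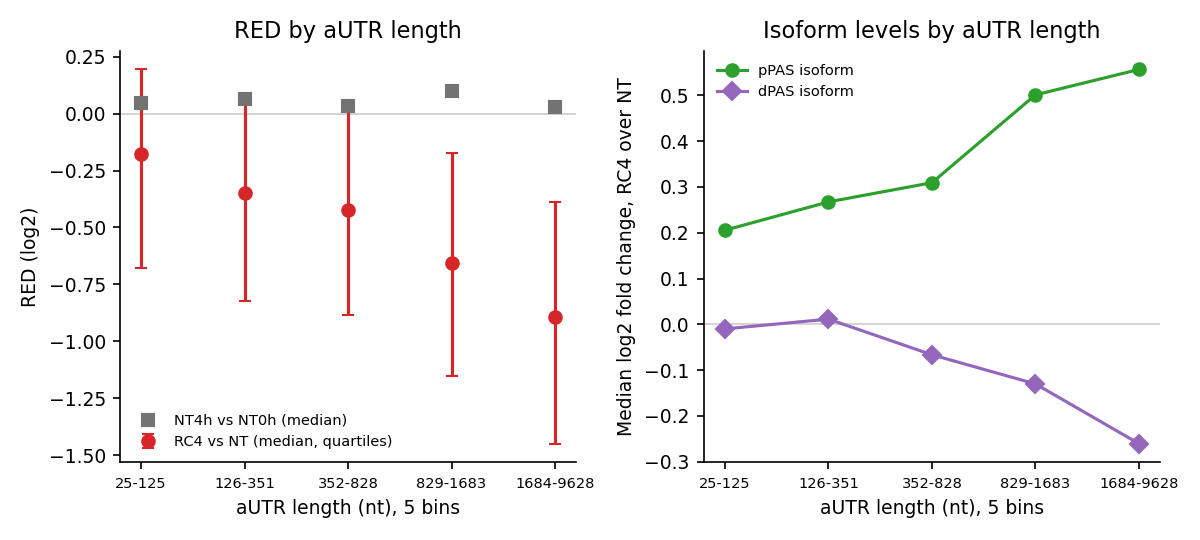
Left, median RED with quartiles for RC4 against NT and median RED for NT4h against NT0h, by aUTR length in 5 bins of 562 to 564 genes. Right, median log2 fold change of the pPAS and dPAS isoforms (TMM scaling; library totals lower all points by 0.41). RED falls from −0.18 to −0.90 while the NT pair stays between 0.03 and 0.10.

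The last 30 bases before each cleavage site are shown for 5 genes: Stxbp5 and Oxsr1, with strongly negative RED, Nmt1 and Timp2, which the study examined, and Zfp207, with the most positive RED. Capitals mark the poly(A) signal AATAAA or its variant ATTAAA (mm9, 5′ to 3′ on the gene's strand; the last base is the site).
Stxbp5 pPAS, chr10:9480374-9480403, minus strand: attcctgtATTAAActttcatatgccaaaa
Stxbp5 dPAS, chr10:9477553-9477582, minus strand: tctgcaaAATAAAgagcactgaactttaaa
Oxsr1 pPAS, chr9:119149788-119149817, minus strand: gtagcaATTAAAgttgattgttcagctgga
Oxsr1 dPAS, chr9:119147556-119147585, minus strand: tcAATAAAgagtaaattgtccttaatgata
Nmt1 pPAS, chr11:102927390-102927419, plus strand: tgaatAATAAAagtatatatattatatata
Nmt1 dPAS, chr11:102930197-102930226, plus strand: cttgtttctAATAAAggaagttcaacggtc
Timp2 pPAS, chr11:118164903-118164932, minus strand: aacagcatgAATAAAacatcaatcatccaa
Timp2 dPAS, chr11:118162375-118162404, minus strand: atggacAATAAAccatattatcaaagagaa
Zfp207 pPAS, chr11:80209719-80209748, plus strand: tgtccacgtAATAAAactcagttaccaata
Zfp207 dPAS, chr11:80219347-80219376, plus strand: tttattaaaAATAAAaatttcccacacaaa
In Stxbp5 and Oxsr1 the proximal site has the variant signal and the distal site AATAAA, while in the other 3 genes both sites have AATAAA. The Timp2 and Zfp207 distal sites lie past the annotated ends of these genes in GENCODE M1, and the other sites lie in annotated 3′UTRs. Across the 555 shortened genes, AATAAA was found within 40 nt upstream of 51.5% of pPASs and 74.6% of dPASs, and in the 2227 genes not called of 48.1% and 57.8%.

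The most negative RED was that of Stxbp5, a regulator of vesicle fusion. Its dPAS had 31, 50 and 7 reads and its pPAS 15, 13 and 40 in NT0h, NT4h and RC4, so the dPAS share was 67.4, 79.4 and 14.9% (RED −4.05). In Oxsr1, a kinase of the osmotic stress response, the share was 63.2, 63.4 and 17.2% (67, 85 and 45 dPAS reads and 39, 49 and 217 pPAS reads, RED −3.06). In Vps33a, a lysosomal trafficking gene, it was 40.0, 48.9 and 7.78% (RED −3.27). Foxk1 (dPAS share 86.4, 72.4 and 24.5%, RED −3.49) and Rnf111 (59.1, 70.5 and 17.9%, RED −3.20) followed, and edgeR called these 5 genes with adjusted p from 6e-07 to 0.0011.

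Among lengthened genes Zfp207, a mitotic zinc finger protein, had the most positive RED. Its dPAS share was 3.20, 6.06 and 28.8% (10, 24 and 38 dPAS reads and 303, 372 and 94 pPAS reads, RED 3.00). Gins1, a replication factor subunit, had 76.9, 80.5 and 94.3% (RED 2.14), with the short isoform at 69, 76 and 32 reads and the long one at 229, 314 and 527. Ptgfr (RED 1.90) and Fam33a (RED 1.81) were called by Fisher's test, but not by edgeR (adjusted p = 0.055 and 0.098).

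Of the genes the study examined one by one, 5 are given here. Nmt1, N-myristoyltransferase 1, had a dPAS share of 79.7, 76.0 and 39.7% (192, 209 and 71 dPAS reads and 49, 66 and 108 pPAS reads), a RED of −2.41 (edgeR −2.41 ± 0.45, adjusted p = 1e-05). Timp2, an inhibitor of metalloproteinases, had 85.6, 87.2 and 66.7%, where the dPAS isoform fell from 3256 and 3809 to 1004 reads and the pPAS isoform had 548, 558 and 502 reads (RED −1.68, adjusted p = 3.6e-05).

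The chaperone gene Dnajb1 had 73.6, 75.0 and 58.4% (RED −1.04), with both isoforms far higher in RC4 (pPAS 43, 37 and 1610 reads, dPAS 120, 111 and 2263 reads). Rpl22 had 72.8, 74.3 and 63.0% (RED −0.71). Hspa4l had 41.9, 34.9 and 27.3% (RED −0.70), of which the comparison with NT4h did not pass (exact Fisher p = 0.080). In these 3 genes edgeR gave adjusted p from 0.051 (Dnajb1) to 0.28 (Hspa4l). Fam49b lacked a listed distal site in RC4, and Purb and Tmem248 were not analysed here.

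The shortened genes were compared with the rest for what the calls had not used. Their median aUTR was 1210 nt, against 449 nt in genes not called. The share of U in the aUTR was alike (31.8 and 32.3%), as was the density of UUUU (15.3 and 15.0 per kb), and that of AUUUA was 1.44 and 1.07 per kb. In the longest aUTR bin, 3 equal groups of genes with low, middle and high U content had median REDs of −0.93, −0.88 and −0.88. The shares called shortened were 32.1, 36.9 and 38.3%. TIA1 RIP data of AS cells (2 RIP and input pairs) gave the difference in TIA1 binding between dPAS and pPAS isoforms. Its median log2 was 0.60 in 369 shortened genes and 0.42 in 1181 genes not called. In the longest bin 3 equal groups from low to high difference had median REDs of −0.90, −0.94 and −0.87, with 44.55, 42.57 and 39.22% shortened. Over all genes with aUTRs of 100 nt or longer, such groups had −0.50, −0.54 and −0.65. Their median aUTRs also rose, from 461.5 to 766.5 and 1329 nt. These are descriptions with no test, since genes are not replicates.

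In total RNA of the time course, 1825 of the genes could be measured, with a median RED of −0.27 where the same genes had −0.51 in Ft RNA. Of 418 genes shortened in Ft RNA, 352 had a RED below 0 there, beside 66.7% of all 1825, and of 24 lengthened genes 16 were above 0. The median of the 5 aUTR bins went from −0.08 to −0.64. In 4sU RNA the median RED at RC4 was −0.41 over 2556 genes, where the same genes had −0.51 in Ft RNA. The bin medians there were −0.15, −0.27, −0.42, −0.58 and −0.77, less negative in the longest bin than the −0.90 of Ft RNA. The difference between the fractions was not tested for isoforms. In Ft RNA of AS cells, against the same NT libraries, the median RED was −0.20 over 2646 genes where RC4 had −0.51, and the longest bin had −0.52.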

How the data were processed

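NIH3T3 Ft RNA was measured by 3′READS. The authors removed adapters with Cutadapt, mapped reads to mm9 with Bowtie2 and discarded alignments of mapping quality under 10. Reads carrying 2 or more Ts that are not in the genome were taken as PAS reads. The authors grouped sites up to 24 nt apart and deposited the raw count of reads per position. Positions with under 5 reads are not listed. Reads that map to several copies are thus lost, which lowers the counts of genes with near-identical copies. Library totals of PAS reads are the depth, and p-values and intervals of single libraries cover counting error. RNA-seq counts per gene over coding sequence were deposited as well.

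From these counts, positions were joined within 24 nt across 38 libraries (83916 clusters) and assigned to GENCODE M1 genes, up to 4000 nt past an annotated end. Genes with at least 30 reads summed over the 3 Ft libraries were tested with edgeR 4.0.16 (TMM, quasi-likelihood, Benjamini-Hochberg; R 4.3.3); standard errors are approximate. Fold changes in the total RNA and RNA-seq pairs were centred on the median ratio. Isoform calls used Fisher's exact test (scipy 1.17.1) and edgeR's isoform by condition interaction. Tests were tried on simulated data. Alternatives were DESeq2 1.42.0, other scaling, filters, libraries, PAS choices and sampling. NT0h and NT4h differed by more than sampling noise (chi-square per degree of freedom 5.18) and served as the 2 NT samples, although their harvest times differ. Per the study's methods both fractions come from the RNA of the same cells, so Ft and 4sU libraries were also paired by culture: the log2 ratio of NT4h to NT0h correlated between fractions (r = 0.295 across 8835 genes, which are not independent).

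Named genes were the 12 called genes with the largest rise and the 12 with the largest fall (at least 150 reads and 2-fold against each NT library), the 3 with the largest rise and fall in each of 18 lists, the 6 most negative and 4 most positive REDs (50 reads of each isoform), and the genes the study examined. A few genes that met these rules are not reported here. The comparisons and lists were chosen with earlier results of these data known. Promoter sequences are RefSeq's (GRCm38.p6).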

Additional observations from a re-analysis of the deposited data

Results flagged for a closer look

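With the culture as a block, edgeR's quasi-likelihood test of the interaction called 467 of 9555 genes (4.89%) at an adjusted p of 0.05. By this test the effect of RC4 differed between Ft and 4sU RNA in 24 of the genes named above. These had been chosen by their changes or calls in the same libraries, so their number does not measure how common such differences are. Values are the log2 effect in Ft RNA minus that in 4sU RNA. Without the block edgeR called none of them (0 genes in all, 1280 at an unadjusted p below 0.05), and 1 RC4 library stands behind each fraction.

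Among genes that rose in both fractions by edgeR, the rise was larger in Ft RNA for Hspa1b (1.09), Hmox1 (1.18), Atf3 (2.61), Slc30a1 (1.54), Sqstm1 (0.74), Dusp4 (1.63), Ptgs2 (1.48) and Il11 (1.77). The fitted rise was also larger for Slc7a11 (2.51) and Gdnf (1.68). In Ft RNA, however, Slc7a11 had 6 and 0 NT reads over 8 sites, and Gdnf 8 and 9 over 6 sites. With up to 4 unlisted reads at each site, a larger rise of these genes in Ft RNA is not shown. Atf3, for example, had 18, 10 and 1525 reads in Ft RNA and 50, 65 and 1600 in 4sU RNA in NT0h, NT4h and RC4. Ddx3x (1.15), Timp3 (0.94) and Rpl27a (0.87) rose in Ft RNA and were not called in 4sU RNA, and their effect was higher in Ft RNA. The effects were of opposite sign for Cyp51 (2.16), Cd97 (1.85), Filip1l (1.41), Tia1 (−2.03), Ttc14 (−2.64), Usp5 (−1.20) and Bclaf1 (−1.12).

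For 4 genes 1 group of Ft libraries was not listed, so the fitted difference is no measure of size: Havcr2 (5.34), Bace1 (−8.68), Zfp618 (−7.18) and 9030617O03Rik (−10.13). Bace1 had 80, 111 and 0 reads in Ft RNA and 80, 139 and 68 in 4sU RNA.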

How the results depend on the processing

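No paired analysis was possible for RC4 against NT because RC4 has 1 Ft library and NT has 2 (NT0h and NT4h), all with replicate number 2. The fractions are paired by culture, and with the replicate block (culture), added after the data were seen, edgeR called 319 higher and 148 lower effects in Ft than in 4sU RNA, where it called 0 and 0 without the block. With library totals in place of TMM, 1066 genes rose and 3051 fell, and 123 list genes fell; with DESeq2, 894 rose and 472 fell, and 30 list genes fell. The list genes were 175 that rose and 59 that fell. Leaving out 1 NT library, which takes the lone one to vary like the 4sU NT pair, 1253 to 1255 genes rose and 768 to 825 fell, with 137 to 143 list genes that rose and 29 to 34 that fell. Fisher's test called 555 genes shortened and 33 lengthened, 894 and 78 with NT reads summed, 343 and 19 with more than 20 reads, 150 and 8 with a change over 20 percentage points, 791 to 887 and 97 with 1 NT library, and 18 lengthened with adjusted p. By edgeR, 112 were shortened and 2 lengthened with 8 libraries, 6 lengthened with more than 20 reads, 5 with the most proximal and most distal PASs, and 0 to 0 in both directions with 1 NT library. The median RED was −0.51 with NT summed, −0.50 to −0.47 with 1 NT library, −0.47 with more than 20 reads, −0.55 with outermost PASs and −0.48 with 1000000 reads drawn. The median RED of the longest minus the shortest bin was −0.72, and −0.79 to −0.72, −0.65, −0.67 and −0.60 under these. The cause of these shifts was not tested. DESeq2 called 14 and 1 differences between fractions without the block. The 24 genes with the largest changes kept their direction in every alternative that gave a value (P2rx7 had none from last exons and Cd248 none without the extension), and 3 were not called by DESeq2 (Slc7a11, Egr1 and Dnaja4). One RC4 library limits every result.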

Other observations

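Gene levels were set beside 3′UTR length. In 5 equal groups by the 3′UTR length of the main NT isoform, from the shortest (2 to 229 nt) to the longest (1760 to 19490 nt), the median log2 fold change in Ft RNA was −0.06, −0.15, −0.11, −0.01 and 0.11. The share of genes that rose was 14.3, 15.5, 18.6, 21.1 and 24.5%, and the share that fell 14.4, 17.5, 19.5, 15.8 and 13.6%. The same groups differed between the NT libraries as well, with a median log2 of NT4h over NT0h from −0.05 to 0.08.

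Gene levels were also set beside enrichment by TIA1 RIP in AS cells, in 5 equal groups. In the group with the strongest TIA1 binding 26.4% rose and 15.2% fell (median log2 0.12, 1576 genes), and in the weakest 15.9% rose and 14.7% fell (median −0.03, 1577 genes). NT4h over NT0h went from −0.10 to 0.10 across the 5 groups. These shares have no test, since genes are not replicates, and the difference between them was not tested.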
